A study of Arabidopsis thaliana with 12 samples.

Results

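Pectin methylesterases of Arabidopsis thaliana were followed across all 6 groups of a seedling study of the plant hormone ethylene. The genes were found by locus in a list of 59 pectin methylesterase genes. Of these, 39 were measured, each by 1 probe set annotated to that gene alone, among 13286 genes that could be named in this way. Of the other 20 listed genes, 3 lay on probe sets annotated to several genes and 17 were on none of the listed probe sets; they were not analysed here. The reference names 5 of the 39 as pectin methylesterases by symbol or synonym, and 35 carried only a locus number as their symbol, so that membership of most of the family rests on the list.

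The groups were dark-grown seedlings of ein5 (allele ein5-1), of ein2 (allele ein2-5) and of the wild type (Columbia, Col-0), each given ethylene at 10 ppm for 4 h or kept in hydrocarbon-free air, with 2 ATH1 expression arrays per group. EIN2 is a membrane protein through which the ethylene signal passes, and EIN5 is an RNA-degrading enzyme that works from the 5′ end. Loss of either reduces the response of seedlings to the hormone. The labels disagree on growth, since the texts of 11 arrays give 5 days in the dark at 25 °C, and the text of 1 array (ein2 in air, replicate 1) gives 3 days at 24 °C, as the description of the whole series does; they also name mature leaves as the RNA source in 1 field and seedlings in the others. Each mutant was represented by 1 allele, EIN2 and EIN5 themselves were not analysed here, and no label gives separate cultures for replicate arrays, so each p-value reflects the spread between arrays alone, which may be technical.

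Pectin is the gel of the plant cell wall, and its main polymer, homogalacturonan, is laid down with methyl groups on its acid residues. Pectin methylesterases take these groups off. The freed acid residues can be bridged by calcium, which stiffens the gel, or can be attacked by polygalacturonases and pectate lyases, which cut the chain and soften it, so the same enzyme family is known both for firming and for loosening walls. In dark-grown seedlings the pectin of the growing hypocotyl is among the wall components tied to cell elongation, which ethylene reduces as part of the triple response.

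The deposited array medians lay between 922 and 1039, and the scaled log2 values of the 2 arrays of a group correlated at 0.960 to 0.975 across probe sets. The 2 arrays of wild-type ethylene lay furthest apart, with a median gap of 0.32 on the log2 scale, against 0.25 in wild-type air and 0.19 to 0.21 in the mutant groups. They correlated with each other at 0.9598. With arrays of other groups the mean correlation was 0.9604 for replicate 1 and 0.9467 for replicate 2. The fit shares 1 estimate of spread per probe set over all 6 groups. The p-values of comparisons that use wild-type ethylene may therefore be too small. With 2 arrays a group, the number of arrays limits the precision of every value below.

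Across the 12 arrays the mean scaled intensity of the 39 genes ran between 7.34 and 25995. A gene was counted as expressed where its mean scaled intensity over the 12 arrays was at least the median over all 22746 probe sets (995), as near background where it was under the lower quartile (203), and as low in between. By these limits 12 genes were expressed, 9 were low and 18 were near background. Signal depends on the probe set as well as on the transcript, so the order of genes by signal is not an order of transcript amount, and the arrays carry no detection call in the values used here.

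The 3 brightest probe sets were those of AT3G49220, with a mean of 25995, AT2G43050 (ATPMEPCRD), with 24821, and AT3G10720, with 9895. Just inside the limit for expressed genes were AT1G02810 at 2259.9, AT5G64640 at 1286 and AT3G47400 at 1005. Just outside it were AT5G19730 at 926, AT2G47550 at 732 and AT1G05310 at 596. Among the 9 low genes, 2 passed the median in some groups. AT5G19730 did so in 3, averaging 1209.5 in ein5 in air, 1005 in ein2 in ethylene and 1064 in ein2 in air (n = 2 each). AT2G47550 did so in 1, averaging 1824 in wild-type ethylene (n = 2). Near background, 55 of 216 single values lay at or under 16, the constant added before taking logarithms, and replicate arrays differed by a median of 0.59 in log2 value, against 0.30 for low and 0.13 for expressed genes.

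**Figure D1:**
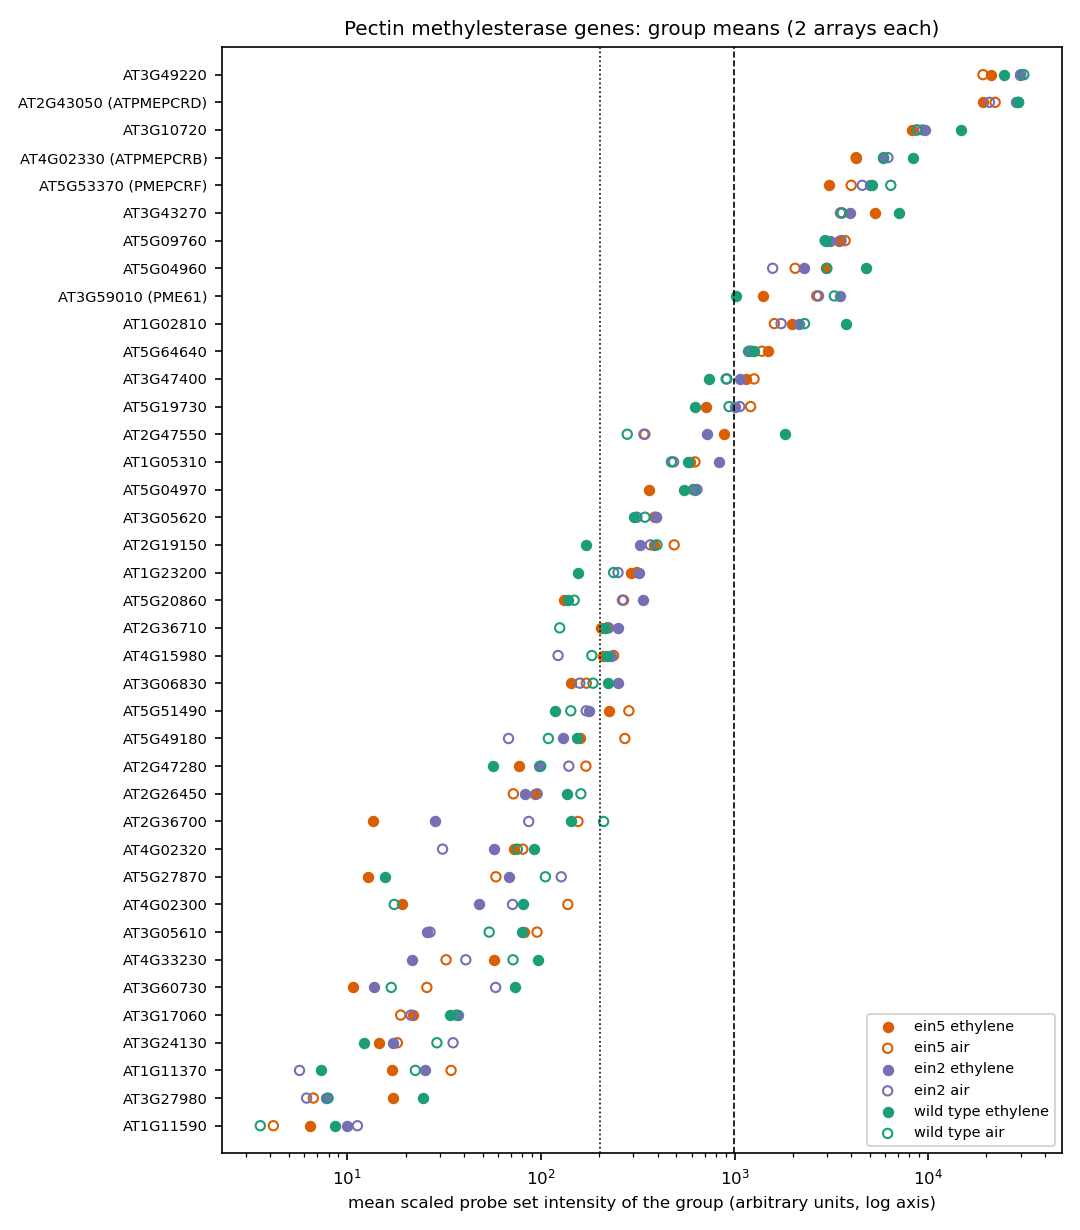
Mean scaled intensity (log axis, arbitrary units) of each of the 39 pectin methylesterase genes in each group, with filled points for ethylene and open points for air, 2 arrays per point. The dashed line marks the expressed limit (995) and the dotted line the near-background limit (203): 12 genes lie at or above the first by their overall mean and 18 below the second, and AT2G47550 is a low gene whose wild-type ethylene point (1824) stands beyond the dashed line.

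A gene was called changed where limma's moderated test on log2(scaled intensity + 16), fitted over all 22746 probe sets and 12 arrays, gave an adjusted p (Benjamini-Hochberg over all probe sets) under 0.05. Over 9 comparisons 10 of the 39 genes (25.6%) were called at least once and 29 in none, where 19.6% of all probe sets were called at least once. Of the 12 expressed genes, 8 were called (66.7%), against 1 of the 9 low genes (11.1%) and 1 of the 18 near background (5.56%). Over all probe sets of the same 3 classes the shares were 32%, 11% and 3.31%, so calls fell mostly on expressed probe sets in general. The 4 expressed genes called nowhere were AT2G43050, AT5G09760, AT5G64640 and AT3G47400, whose log2 differences lay between -0.58 and 0.61, with a smallest adjusted p of 0.0864.

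In the wild type, 4 h of ethylene was followed by higher signal of 6 pectin methylesterase genes and lower signal of 1. The background over all probe sets was 3.82% higher and 6.28% lower, so 6 of 39 in the higher direction (15.4%) stands above that background and 1 of 39 (2.56%) below it. The median log2 difference of the 39 genes was -0.04, against 0.02 over all probe sets, and 17 of the 39 were positive. The labels give no dissection or sorting of cell types, so a change in RNA per cell and a change in the number of cells of a type cannot be told apart here or in any result that follows.

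The gene that rose most was AT2G47550, a pectin methylesterase known here only by its locus. It read 1593 and 2055 in wild-type ethylene, against 329 and 229 in wild-type air. The ethylene arrays stood far above the air arrays, by 2.65 ± 0.26 on the log2 scale (SE, n = 2 each; limma adjusted p = 1.49e-05), a 6.28-fold difference on the offset scale. AT3G59010 (PME61, also listed as PME35), known for the mechanical strength of the inflorescence stem, went the other way. It read 928 and 1099 in wild-type ethylene and 3910.5 and 2636 in wild-type air. The groups did not overlap, although the 2 air arrays lay further apart than the 2 ethylene arrays, and the log2 difference was -1.65 ± 0.17 (SE, n = 2 each; limma adjusted p = 2.3e-05).

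The other 5 genes that rose in the wild type were all expressed members, and they rose by less. AT3G43270 read 6184 and 7979 in ethylene, against 3934 and 3257 in air, a log2 difference of 0.97 ± 0.13 (SE, n = 2 each; limma adjusted p = 0.000268). AT3G10720 read 13187 and 16182 in ethylene, against 9474 and 8089 in air, a difference of 0.74 ± 0.13 (adjusted p = 0.00197, limma). In both genes the lower ethylene array stood well above the higher air array. AT1G02810 read 3367 and 4199 in ethylene and 2727 and 1869 in air, a difference of 0.73 ± 0.17 (adjusted p = 0.0136, limma). AT5G04960 read 4292 and 5227 in ethylene and 3381 and 2609.8 in air, a difference of 0.67 ± 0.14 (adjusted p = 0.00731, limma). AT4G02330 (ATPMEPCRB, also listed as PME41), known from chilling and brassinosteroid responses, read 8126 and 8476 in ethylene and 6306 and 5455 in air, a difference of 0.50 ± 0.11 (adjusted p = 0.00964, limma).

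In each of these 5 genes every wild-type ethylene array lay above every wild-type air array. The genes were picked by a test on the same arrays, so this separation is no further evidence. How many of all probe sets separate in this way was not counted, here or for the other comparisons. The changes of AT2G47550, AT3G59010 and AT3G43270 were called under all 21 alternative settings, while 3 of the smaller ones rested on single arrays. Without wild-type air replicate 2, 4 of the 7 calls were made, and the adjusted p rose to 0.0807 for AT4G02330, 0.0748 for AT5G04960 and 0.133 for AT1G02810; without wild-type ethylene replicate 2 it was 0.0689 for AT5G04960 and 0.114 for AT1G02810. In a fit of the wild-type arrays alone 3 calls were made, with AT3G10720 at an adjusted p of 0.0723.

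**Figure D2:**
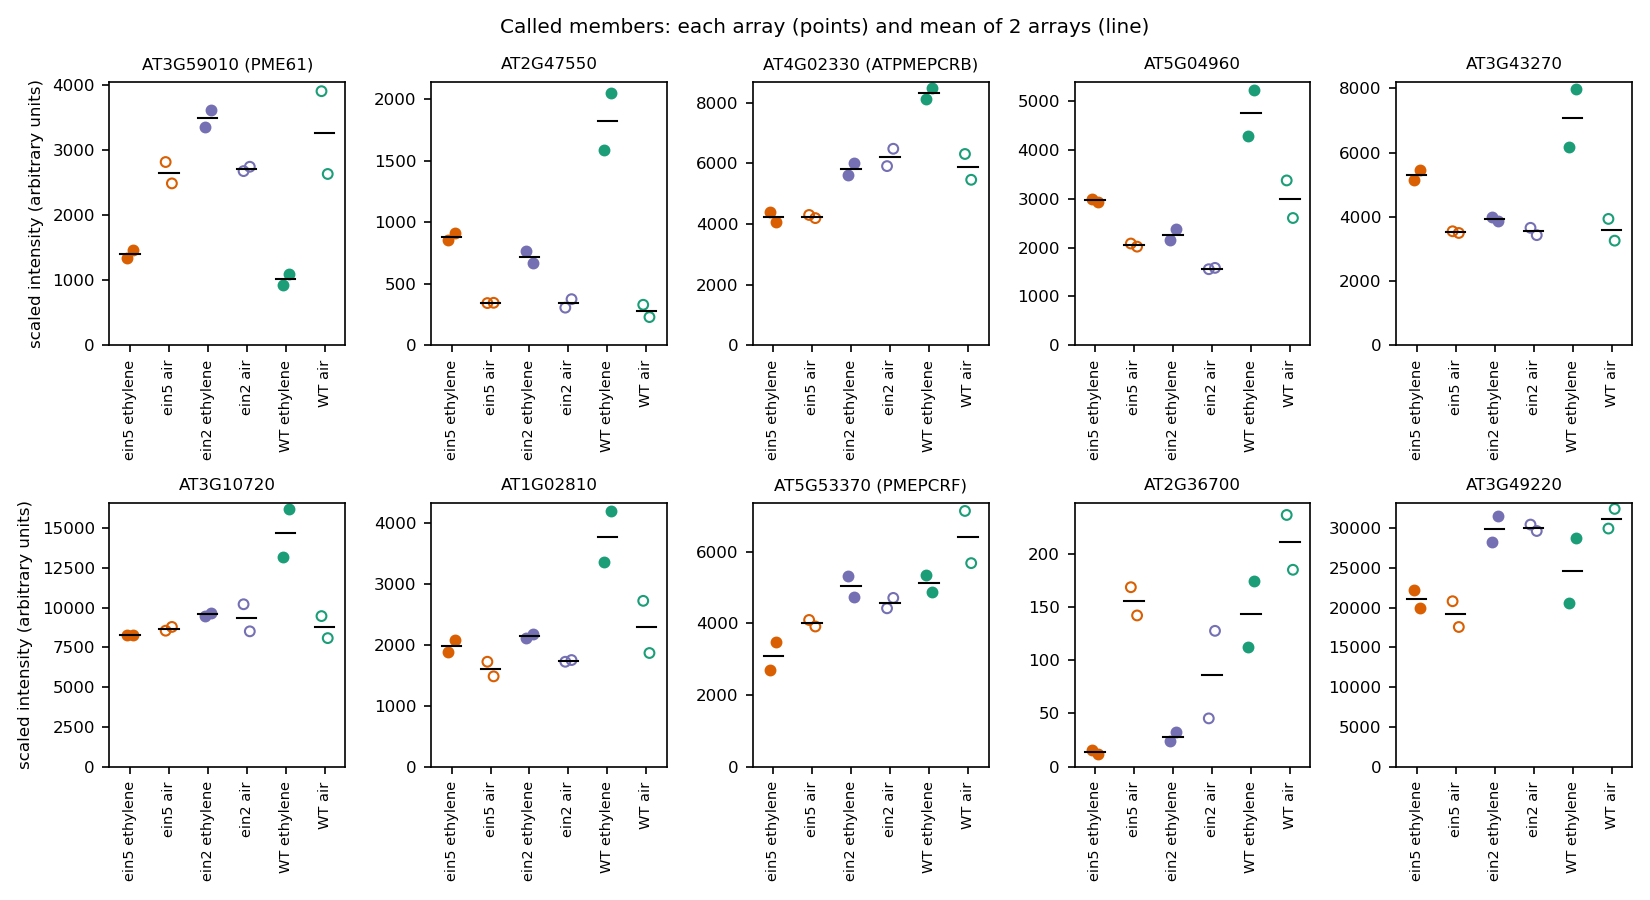
Scaled intensity (linear axes from 0, arbitrary units) of the 10 genes called in at least 1 comparison, with 1 point per array, filled for ethylene and open for air, and a line at the mean of the 2 arrays of each group. AT2G47550 is high in ethylene in all 3 genotypes and highest in the wild type, AT3G59010 is low in ethylene in ein5 and the wild type but not in ein2, and AT3G10720 and AT4G02330 stand high in wild-type ethylene alone.

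In ein5, ethylene was followed by higher signal of 2 genes and lower signal of 2. The background over all probe sets was 0.774% higher and 0.849% lower, so each of these counts (5.13% of 39) stands above its background. AT2G47550 read 855 and 911 in ein5 in ethylene, against 343 and 345 in ein5 in air, a log2 difference of 1.32 ± 0.26 (SE, n = 2 each; limma adjusted p = 0.0194). AT3G43270 read 5145 and 5450.3 in ethylene, against 3549.6 and 3497 in air, a difference of 0.59 ± 0.13 (adjusted p = 0.0415, limma). In both the ein5 arrays of each gas lay close together and the gases did not overlap. AT3G59010 read 1344 and 1462 in ethylene, against 2819.9 and 2491 in air, a difference of -0.91 ± 0.17 (adjusted p = 0.0147, limma). These 3 genes were called in the same direction in the wild type, whose values are given above.

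The remaining ein5 call was AT2G36700, a gene near background. It read 15.5 and 11.8 in ein5 in ethylene, under the added constant, against 169 and 142 in ein5 in air. The log2 difference was -2.53 ± 0.55 (SE, n = 2 each; limma adjusted p = 0.0355), and its size depends on the constant, moving to -1.50 with 64 added in place of 16, where the adjusted p was 0.0529. In the wild type the same gene read 113 and 174 in ethylene and 236 and 185 in air, groups that did not overlap, with a difference of -0.53 ± 0.55 (adjusted p = 0.665, limma). It also read low in ein2 in ethylene, at 24.1 and 32.6, against 45.4 and 127.6 in ein2 in air, without a call. No ein5 call was made when any 1 of the 4 ein5 arrays was left out, and 2 of the 4 were made without ein2 in ethylene replicate 1 or replicate 2, which enter only through the estimate of spread. AT3G43270 was also lost without either array of ein2 in air (adjusted p = 0.0718 each).

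In ein2 no gene was called in either direction, against 0.475% of all probe sets called higher and 0.0396% lower; 4 of the 39 had an unadjusted p under 0.05. AT2G47550 read 771 and 669 in ein2 in ethylene, against 306 and 375 in ein2 in air. Both ethylene arrays stood above both air arrays, by 1.05 ± 0.26 on the log2 scale, with a 95% interval of 0.49 to 1.60, and the difference missed the threshold (SE, n = 2 each; limma adjusted p = 0.124). It passed at 0.0415 when arrays were weighted by quality. AT5G04960 read 2150.2 and 2391 in ethylene and 1559 and 1587 in air, a difference of 0.52 ± 0.14 (adjusted p = 0.168, limma), again with no overlap between the gases. AT3G59010, which fell in the other genotypes, read 3361 and 3624 in ein2 in ethylene and 2680.2 and 2747 in ein2 in air, a difference of 0.36 ± 0.17 with an interval of -0.0019 to 0.72 (adjusted p = 0.504, limma).

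**Figure D3:**
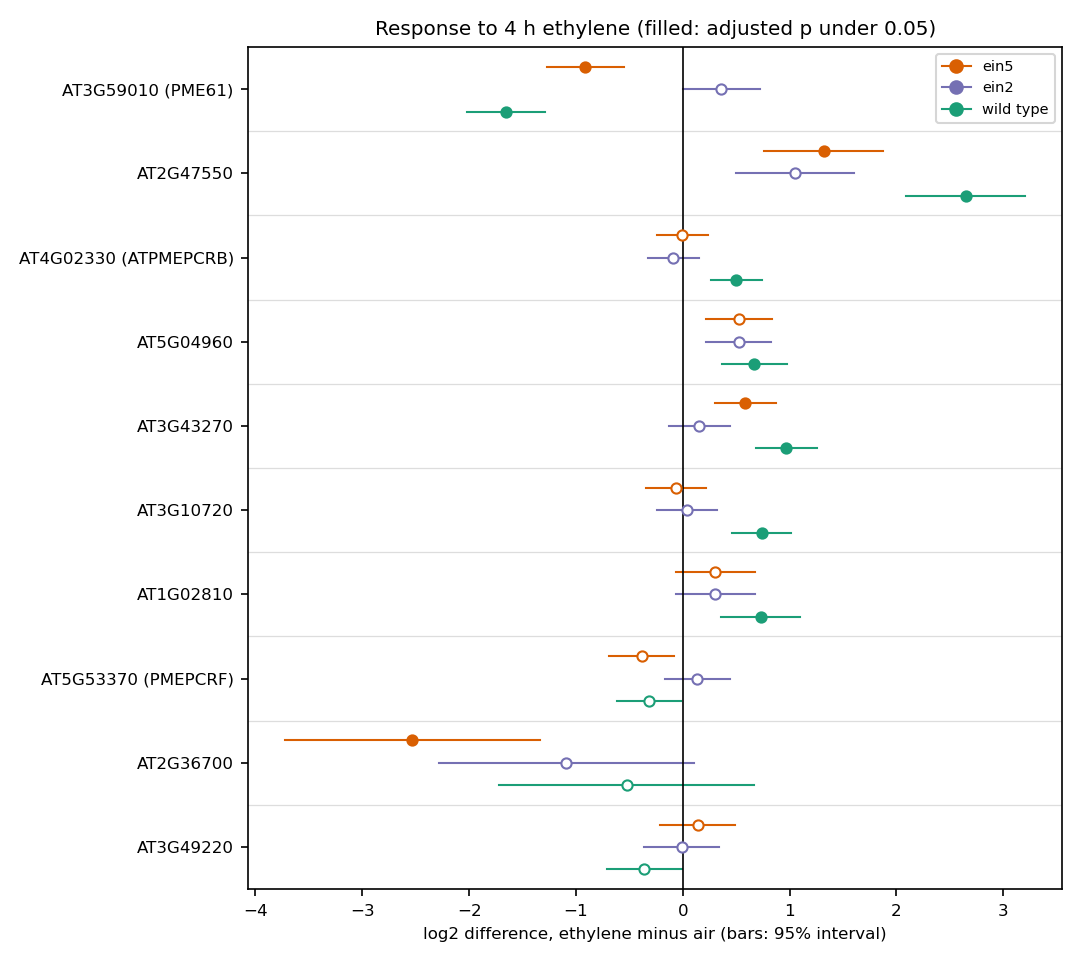
Log2 difference between ethylene and air in ein5, ein2 and the wild type for the 10 called genes, with 95% intervals; filled points passed the adjusted p of 0.05. AT2G47550 lies right of 0 in all 3 genotypes, at 1.32, 1.05 and 2.65 in the order of the legend, and AT3G59010 lies left of 0 in ein5 (-0.91) and the wild type (-1.65) and right of 0 in ein2 (0.36).

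Whether a mutant's response differed from that of the wild type was tested directly, as the difference of the 2 differences. For ein2, 1 gene was called higher and 2 lower, against 2.8% of all probe sets higher and 0.95% lower, so the share called higher (2.56%) lies near its background and the share called lower (5.13%) above it. AT3G59010 responded to ethylene 2.01 ± 0.24 higher on the log2 scale in ein2 than in the wild type (SE; limma adjusted p = 0.000396). This call was made under each of 21 alternative settings, with an adjusted p of at most 0.0293. AT2G47550 responded by -1.60 ± 0.37 relative to the wild type (adjusted p = 0.0267, limma) and AT3G43270 by -0.82 ± 0.19 (adjusted p = 0.0278, limma). Both these calls were lost without any 1 of the ein2 arrays, without wild-type air replicate 2 or without wild-type ethylene replicate 2, with adjusted p between 0.0523 and 0.112 for AT2G47550 and between 0.0557 and 0.118 for AT3G43270. The next genes were AT3G10720, at -0.70 ± 0.18 (adjusted p = 0.0524, limma), and AT4G02330, at -0.59 ± 0.16 (adjusted p = 0.054, limma), which were called, making 5, on the values as deposited, after quantile normalization, without dim probe sets and without wild-type air replicate 1. AT3G10720 was also called without wild-type ethylene replicate 1 (adjusted p = 0.016).

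For ein5 no gene's response was called different from that of the wild type, against 0.431% of all probe sets higher and 0.101% lower; 7 of the 39 had an unadjusted p under 0.05. AT3G10720 came nearest. It read 8278 and 8298 in ein5 in ethylene, against 8556 and 8793 in ein5 in air, and its response was -0.80 ± 0.18 relative to the wild type (SE; limma adjusted p = 0.0794), reaching 0.049 on the values as deposited, 0.0404 after quantile normalization and 0.0173 without wild-type ethylene replicate 1. AT2G47550 differed by -1.33 ± 0.37, with a 95% interval of -2.12 to -0.55 (adjusted p = 0.152, limma). AT3G59010 differed by 0.74 ± 0.24, with an interval of 0.23 to 1.26 (adjusted p = 0.242, limma). Differences between responses are less precise than single responses: the median SE over all probe sets was 0.32 for them, against 0.23 for a difference between 2 groups.

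In air the mutants were set against the wild type to see which genes differed before ethylene was given. In ein5, 4 genes were lower and none higher, against 3.77% of all probe sets lower and 2.04% higher; the 4 make 10.3% of the 39 and are all expressed genes. AT5G53370 (PMEPCRF) read 4094 and 3911 in ein5 in air, against 7134 and 5679 in wild-type air, a log2 difference of -0.67 ± 0.14 (SE, n = 2 each; limma adjusted p = 0.0171). AT3G49220, the brightest probe set of the family, read 20803 and 17565 in ein5 and 29940 and 32409 in the wild type, a difference of -0.70 ± 0.16 (adjusted p = 0.025, limma). In both genes the ein5 and wild-type arrays did not overlap. AT4G02330 read 4296 and 4192 in ein5 and 6306 and 5455 in the wild type, a difference of -0.47 ± 0.11 (adjusted p = 0.0281, limma). AT5G04960 read 2086 and 2022 in ein5 and 3381 and 2609.8 in the wild type, a difference of -0.53 ± 0.14 (adjusted p = 0.0457, limma).

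AT4G02330 and AT5G04960 likewise did not overlap between ein5 and the wild type. All 4 ein5 calls in air rested on single arrays. None of the 4 was called without ein5 in air replicate 2 (adjusted p between 0.182 and 0.287) or without wild-type air replicate 1 (between 0.0604 and 0.245), and 1, AT3G49220, was called without ein5 in air replicate 1. AT3G49220 itself was lost without wild-type air replicate 2 (adjusted p = 0.109). In ein2, AT5G04960 alone was lower in air and none was higher, against 1.47% of all probe sets lower and 1.24% higher. It read 1559 and 1587 in ein2 in air, against 3381 and 2609.8 in wild-type air, a log2 difference of -0.91 ± 0.14 (SE, n = 2 each; limma adjusted p = 0.00332). Leaving out any single array did not end that call; 2 genes were called without wild-type ethylene replicate 1 or replicate 2, arrays outside the comparison. AT5G53370 read 4419 and 4709 in ein2 in air, lower than both wild-type air arrays but short of the threshold (log2 difference -0.48 ± 0.14, limma adjusted p = 0.0969).

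In ethylene 7 genes were called between each mutant and the wild type, against 4 (ein5) and 1 (ein2) in air. In ein5, 7 genes were lower and none higher, against 2.93% of all probe sets lower and 2.15% higher, so 17.9% of the family was called lower. The clearest was AT4G02330, which read 4399 and 4066 in ein5 in ethylene, against 8126 and 8476 in wild-type ethylene, a log2 difference of -0.97 ± 0.11 (SE, n = 2 each; limma adjusted p = 0.00021); this call was made under all 21 alternative settings. AT3G10720 differed by -0.82 ± 0.13 (adjusted p = 0.00277, limma), with ein5 arrays at 8278 and 8298 and wild-type arrays at 13187 and 16182. AT1G02810 read 1890.3 and 2078 in ein5, a difference of -0.92 ± 0.17 from the wild type (adjusted p = 0.00735, limma). These 3 genes had risen in the wild type, and their log2 differences between ethylene and air in ein5 were -0.005, -0.07 and 0.31, none of them called. Their responses in ein5 were not called different from those in the wild type either (-0.50, -0.80 and -0.43, limma adjusted p = 0.222, 0.0794 and 0.566).

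AT5G53370 read 2701 and 3467 in ein5 in ethylene, against 5354 and 4881 in wild-type ethylene, a difference of -0.74 ± 0.14 (SE, n = 2 each; limma adjusted p = 0.00829), close to its difference in air. AT5G04960 differed by -0.67 ± 0.14 (adjusted p = 0.0148, limma), also close to its difference in air. AT2G47550 differed by -1.02 ± 0.26 (adjusted p = 0.0352, limma). AT2G36700, near background, differed by -2.40 ± 0.55 (adjusted p = 0.0225, limma). The count of 7 fell to 2 without ein5 in ethylene replicate 1, to 4 without ein5 in ethylene replicate 2 and to 4, of which 1 was higher, without wild-type ethylene replicate 2. AT2G47550 was also lost without ein2 in ethylene replicate 1 (adjusted p = 0.0526) or replicate 2 (0.0516).

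In ein2 in ethylene, 6 genes were lower than in the wild type and 1 was higher, against 3.47% of all probe sets lower and 6.4% higher, so the lower share (15.4%) stands above its background and the higher share (2.56%) below it. The higher one was AT3G59010, which read 3361 and 3624 in ein2 in ethylene, against 928 and 1099 in wild-type ethylene, a log2 difference of 1.77 ± 0.17 (SE, n = 2 each; limma adjusted p = 9.29e-06). Both ein2 arrays stood far above both wild-type arrays. The lower ones were the 6 genes that had risen in the wild type. AT5G04960 differed by -1.06 ± 0.14 (adjusted p = 0.000227, limma). AT3G43270 differed by -0.83 ± 0.13 (adjusted p = 0.000899, limma). These 3 differences were called under all 21 alternative settings.

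AT2G47550 differed by -1.31 ± 0.26 between ein2 and the wild type in ethylene (SE, n = 2 each; limma adjusted p = 0.00415). AT1G02810 read 2115 and 2184 in ein2 in ethylene, a difference of -0.80 ± 0.17 (adjusted p = 0.00757, limma). AT3G10720 read 9486 and 9667 in ein2 in ethylene, a difference of -0.61 ± 0.13 (adjusted p = 0.00759, limma). AT4G02330 read 5609 and 6015 in ein2 in ethylene, a difference of -0.51 ± 0.11 (adjusted p = 0.00803, limma). For the last of these, the difference between ein2 and the wild type in air was 0.08 ± 0.11, with a 95% interval of -0.16 to 0.32, and ein5 was called lower than the wild type in both gases. Without ein2 in ethylene replicate 1 or replicate 2, 4 genes were called in place of 7, and AT1G02810 was also lost without wild-type ethylene replicate 2 (adjusted p = 0.0652). The wild-type ethylene arrays enter the wild-type response, both response differences and both comparisons in ethylene, so the calls of a gene across these are not separate observations.

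**Figure D4:**
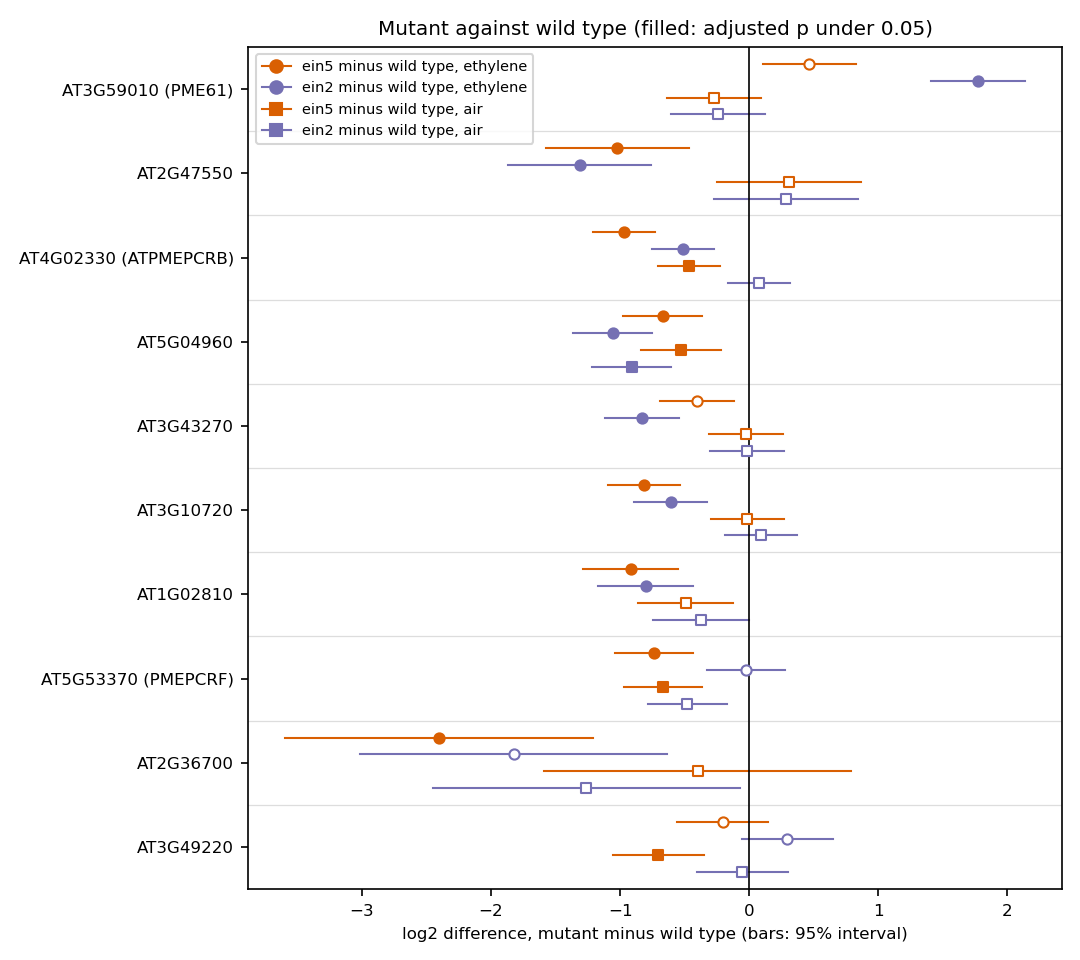
Log2 difference between each mutant and the wild type, in ethylene (circles) and in air (squares), for the 10 called genes, with 95% intervals; filled points passed the adjusted p of 0.05. AT3G59010 in ein2 in ethylene (1.77) is the only filled point right of 0; AT5G04960 is filled left of 0 in both mutants and both gases.

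AT5G04960 was called in 5 of the 9 comparisons: higher in wild-type ethylene than air, and lower in both mutants in both gases. It also read higher in ethylene than in air in both mutants, without a call. The ein5 arrays read 2998 and 2941 in ethylene, against 2086 and 2022 in air, and the ein2 values are given above. With arrays weighted by quality the ein5 difference was called (log2 0.53, limma adjusted p = 0.0241). Its response was not called different from that of the wild type in either mutant. The ein5 call in air was lost under 14 of 21 alternatives. Expansins of root hairs were called in some of the same comparisons. Of the 5 root-hair markers listed, 2 were measured, EXPA7 and EXPA18, expansins that loosen the wall of growing root hairs. Their summed intensity per array lay between 5729 and 7273 in wild-type ethylene, against 3972 and 5418 in wild-type air, between 4057 and 4317 in ein5 in ethylene, against 3026 and 3102 in ein5 in air, and between 3974 and 4225 in ein2 in ethylene, against 2578 and 3126 in ein2 in air. EXPA7 rose in the wild type (log2 0.81 ± 0.22, SE, limma adjusted p = 0.0304). Its differences on ethylene were 0.57 in ein5 (adjusted p = 0.276, limma) and 0.79 in ein2 (adjusted p = 0.177, limma), neither called. EXPA18 was not called in the wild-type response (0.31 ± 0.16, adjusted p = 0.275, limma). Its wild-type arrays overlapped between the gases, at 3604 and 4772 in ethylene and 3814 and 2911 in air. The response of EXPA7 was not called different from that of the wild type in either mutant. EXPA18 was lower than in the wild type in ein5 in air (-0.63, adjusted p = 0.0353, limma), in ein2 in air (-0.66, adjusted p = 0.0433) and in ein2 in ethylene (-0.55, adjusted p = 0.0424), and EXPA7 in ein2 in ethylene (-0.85, adjusted p = 0.0241). The part of root-hair cells in the pectin methylesterase results was not tested.

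Many members of this family are known from pollen. Of the 5 pollen markers measured, ACT12, ANX1, ANX2 and AT4G39110 were near background, with group means of at most 124, and TUA1, a tubulin gene, was the one with bright signal. The summed intensity of the 5 lay between 1708 and 2218 in wild-type ethylene, against 3082 and 3277 in wild-type air, nearly all of it from TUA1, which fell by 0.72 on the log2 scale (limma adjusted p = 0.00553). None of the 5 green-leaf and 5 dry-seed markers listed was among the genes named, so the mention of mature leaves in the labels was not checked here.

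Some members sit side by side on a chromosome, in the gene order of the TAIR10.1 assembly. AT5G04960 is next to AT5G04970 on chromosome 5, AT4G02330 next to AT4G02320 on chromosome 4 and AT2G36700 next to AT2G36710 on chromosome 2. The neighbours did not share the calls. In the wild type AT5G04960 changed by 0.67 and AT5G04970 by -0.16 on ethylene, and AT5G04970, a low gene, had an adjusted p of 0.794 (limma). AT4G02320 and AT2G36710 were called in none of the 9 comparisons, and they read 68.3 and 206 on average over the 12 arrays.

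The other genes of the pectin pathway were taken from lists. The inhibitors of pectin methylesterases are small proteins that bind the enzymes and block them, and 15 of 20 listed genes were measured. In wild-type ethylene, 3 inhibitors (20%) were higher and 2 (13.3%) lower than in air, against 3.82% and 6.28% of all probe sets. AT1G62770 read 22485 and 28330 in wild-type ethylene, against 10879 and 8752 in wild-type air, a log2 difference of 1.37 ± 0.15 (SE, n = 2 each; limma adjusted p = 3.81e-05). AT5G20740 rose by 1.05 ± 0.13 (adjusted p = 0.000125, limma) and AT1G14890 by 0.92 ± 0.17 (adjusted p = 0.00327, limma). AT4G25250 read 668 and 1362 in ethylene and 4701 and 2769 in air, a difference of -1.90 ± 0.27 (adjusted p = 0.000354, limma). Of the 4 named, AT1G14890 lost its call under 1 of 21 alternatives and the others under none. Both the enzymes and their inhibitors held genes called in each direction.

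In ein5, AT5G20740 rose on ethylene (0.66 ± 0.13, limma adjusted p = 0.0231) and AT3G47380 fell (-0.96 ± 0.21, adjusted p = 0.0348), and in ein2 no inhibitor was called, with 3 of 15 at an unadjusted p under 0.05. Under the 21 alternatives the ein5 calls were lost 5 times for AT5G20740 and 10 times for AT3G47380. AT1G62770 differed from the wild type in its response both in ein5 (-1.11 ± 0.21, limma adjusted p = 0.0328) and in ein2 (-0.85 ± 0.21, adjusted p = 0.0412). It read 10835 and 12512 in ein5 in ethylene and 11139 and 12816 in ein2 in ethylene, well under both wild-type ethylene arrays. These response differences were lost under 12 (ein5) and 13 (ein2) of 21 alternatives. AT4G25250 responded 1.52 ± 0.38 higher in ein2 than in the wild type (adjusted p = 0.0423, limma), a call lost under 13 of 21 alternatives, with values between 1.01 and 2.03. In ethylene 3 inhibitors (20%) were higher and 3 (20%) lower in ein2 than in the wild type, against 6.4% and 3.47% of all probe sets. Among them, AT5G62360 (2.76 ± 0.39, limma adjusted p = 0.000343) and AT2G01610 (1.35 ± 0.20, adjusted p = 0.00052) were higher. AT1G62770 was lower (-1.08 ± 0.15, adjusted p = 0.000295). Each of these calls was made under all 21 alternatives.

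Polygalacturonases, which cut the demethylated backbone, were called in 1 direction in the responses to ethylene. Of 38 measured of 57 listed, 6 (15.8%) were lower and none higher in wild-type ethylene than in air, where 6.28% of all probe sets were lower and 3.82% higher. The median of the list was -0.42, against 0.02 over all probe sets, but many of the 38 genes lay near background. AT1G10640 read 139 and 106 in wild-type ethylene, against 543 and 668 in wild-type air, a log2 difference of -2.17 ± 0.27 (SE, n = 2 each; limma adjusted p = 0.000108). AT1G60590 read 8.45 and 8.27 in ethylene, under the added constant, and 159 and 192 in air (-2.97 ± 0.46, adjusted p = 0.000665, limma). Its call was made under each of the 20 alternatives that gave a value, but its size depends on the constant, at -4.23 with 1 added and -1.72 with 64. AT1G48100 differed by -1.69 ± 0.30 (adjusted p = 0.00223, limma) and AT3G16850 by -0.83 ± 0.14 (adjusted p = 0.00166, limma). In ein5, AT1G10640 (-1.70 ± 0.27, adjusted p = 0.00452, limma) and AT3G61490 (-0.66 ± 0.15, adjusted p = 0.0372, limma) were lower in ethylene than in air, calls lost under 2 and 9 of 21 alternatives. In ein2 none was called (6 of 38 at an unadjusted p under 0.05), and 5 (13.2%) responded higher in ein2 than in the wild type, against 2.8% of all probe sets, among them AT1G48100 (2.18 ± 0.43, adjusted p = 0.0114, limma) and AT3G16850 (0.94 ± 0.20, adjusted p = 0.0193, limma), calls lost under 4 and 6 of 21 alternatives. In ethylene, 5 polygalacturonases were higher and none lower in ein5 than in the wild type, against 2.15% and 2.93% of all probe sets, and 7 were higher and 2 lower in ein2, against 6.4% and 3.47%. The counts were 2 and 1 (ein5) and 3 and 3 (ein2) for the 15 inhibitors, and 3 and 1 (ein5) and 2 and 2 (ein2) for the 23 pectate lyases. In air, 1 polygalacturonase was higher and 1 lower in ein5, against 2.04% and 3.77% of all probe sets. In ein2 in air 1 was higher and 2 were lower, against 1.24% and 1.47%. AT1G65570 was lower there (-1.77 ± 0.19, limma adjusted p = 0.000104), a call made under all 21 alternatives.

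Pectate lyases, which cut the same backbone by elimination, were measured for 23 of 27 listed genes. In wild-type ethylene 3 (13.0%) were higher than in air, against 3.82% of all probe sets (AT3G24670, AT4G13210 and AT4G13710, by 0.59, 0.62 and 0.60 on the log2 scale) and 1 (4.35%) was lower, against 6.28%: AT4G24780 (-0.85 ± 0.14, limma adjusted p = 0.00123). The higher calls were lost under 5, 6 and 15 of 21 alternatives in the order named, and that of AT4G24780 under none. AT5G04310 responded 2.55 ± 0.66 higher in ein2 than in the wild type (adjusted p = 0.0482, limma), with 412 and 436 in ein2 in ethylene and 129.6 and 65.6 in ein2 in air; this call was lost under 18 of 21 alternatives. None was called in the ein5 or the ein2 response, where 2 and 4 had an unadjusted p under 0.05.

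Of 6 pectin acetylesterases measured none was called in any response, and AT3G05910 was higher in ein2 than in the wild type in ethylene (log2 0.58, limma adjusted p = 0.0262). It was the only 1 of the 6 called there (16.7%), against 6.4% of all probe sets called higher. The call was lost under 5 of 21 alternatives, with values between 0.29 and 0.86. FER, a receptor kinase that binds pectin, averaged 17285 in ein5, 23664 in ein2 and 21718 in the wild type in ethylene, and was called in no comparison. The subtilases ARA12, S1P and SBT3.5, of a family of proteases that trim pectin methylesterases, were called in none either. Nor were GAUT15 and AT3G49720, all that was measured of 19 genes listed for pectin synthesis and methylation.

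**Figure D5:**
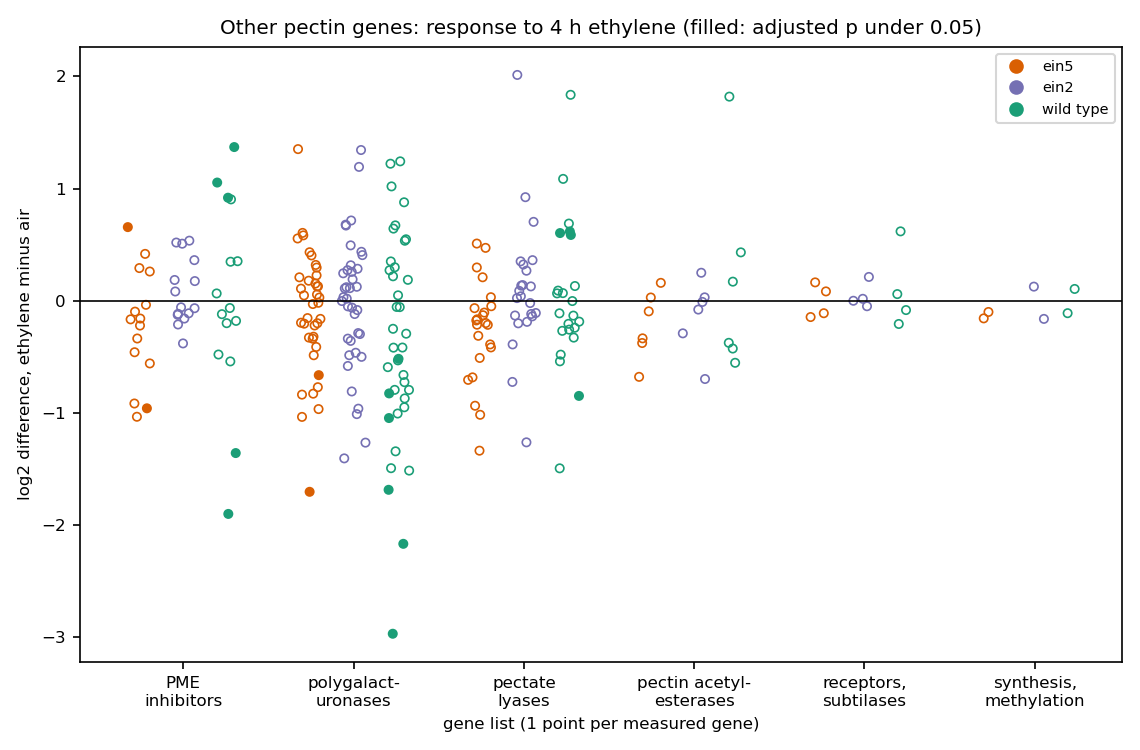
Log2 difference between ethylene and air for every measured gene of 6 other pectin lists in ein5, ein2 and the wild type, with filled points past the adjusted p of 0.05. The 8 filled polygalacturonase points, 2 in ein5 and 6 in the wild type, all lie below 0, the filled inhibitor points lie on both sides, and no ein2 point is filled.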

How the data were processed

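Seedling RNA was measured on 12 ATH1 arrays (2 per group), and the titles of all 12 end in polyA. The deposited values are probe set intensities on a linear scale, made by the authors with GeneChip Suite 3.2 and GeneSpring 4.2, per the labels; the labels describe division of each array by its median over values above 10, and the deposited array medians of 922 to 1039 do not equal 1, so the values were scaled here by each array's median over values above 10 to a common level. The constant 16 was added and log2 taken. limma 3.58.1 in R 4.3.3 fitted the 6 groups together, with a variance trend (6 residual and a median of 7.89 prior degrees of freedom), and p-values were adjusted by Benjamini-Hochberg over 22746 probe sets. The 9 comparisons set ethylene against air within a genotype, each mutant's response minus that of the wild type, and each mutant against the wild type in each gas. Folds are on the log2(intensity + 16) scale and understate changes of dim genes. The procedure was tested on simulated data that gave each probe set the same spread in all groups. The wider gap between the wild-type ethylene arrays was therefore not covered.

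Probe sets were named through the platform annotation and RefSeq's gene table (TAIR10.1): 13513 had 1 gene, of which 13436 matched, 503 had several and 8730 were not listed. The members and lists were chosen with earlier results of these data known. Named with values are members called in any comparison and their chromosome neighbours. So are the 3 brightest and the 3 on each side of the expressed limit. Of each pathway list, up to 4 called genes per comparison were chosen by smallest adjusted p. Those of the ethylene responses and response differences are all given, but only some of those between a mutant and the wild type. AT5G09760 and uncalled values beside called ones are named for completeness, chosen after values were seen. Same-numbered arrays of different groups did not deviate together (correlations of replicate differences between -0.0437 and 0.0734), so no block was used. Alternatives changed the scaling, the constant, the variance trend, array weights, the groups fitted, the dim probe sets and the arrays. Promoter and protein sequences and gene coordinates were not analysed here.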

Additional observations from a re-analysis of the deposited data

Results flagged for a closer look

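Each result below was singled out because the response to ethylene differed between a mutant and the wild type in a direct test (limma, difference of the 2 differences, adjusted over all probe sets). Groups of 2 arrays are too small for a check on single outlying arrays. Among the pectin methylesterases, in ein2 minus wild type, AT3G59010 stood at 2.01 (adjusted p = 0.000396), AT2G47550 at -1.60 (adjusted p = 0.0267) and AT3G43270 at -0.82 (adjusted p = 0.0278), all on the log2 scale. Among the inhibitors, AT1G62770 stood at -1.11 in ein5 minus wild type (adjusted p = 0.0328) and at -0.85 in ein2 minus wild type (adjusted p = 0.0412), and AT4G25250 at 1.52 in ein2 (adjusted p = 0.0423). Among the polygalacturonases, in ein2 minus wild type, AT1G60590 stood at 2.68 (adjusted p = 0.0347), AT1G48100 at 2.18 (adjusted p = 0.0114), AT1G10640 at 1.67 (adjusted p = 0.0264) and AT3G16850 at 0.94 (adjusted p = 0.0193). Among the pectate lyases, AT5G04310 stood at 2.55 in ein2 minus wild type (adjusted p = 0.0482). Of the 21 alternatives (20 for AT1G60590), the call was lost under 0 for AT3G59010, 8 for AT2G47550 and 8 for AT3G43270, under 12 (ein5) and 13 (ein2) for AT1G62770 and 13 for AT4G25250. It was lost under 13 for AT1G60590, whose value ranged from 1.49 to 3.92, 4 for AT1G48100, 7 for AT1G10640, 6 for AT3G16850 and 18 for AT5G04310. Each of these differences includes the wild-type ethylene arrays, so they are not separate observations.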

How the results depend on the processing

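The 33 calls of member genes were recomputed under 21 alternatives, which gave 691 values (AT2G36700 has none without dim probe sets): 564 stayed on the same side of the threshold in the same direction, 127 lost the call and 0 reversed. Of the 33, 8 kept their call under all. The 57 calls chosen in the other pectin lists, not all of them printed here, gave 1193 values, of which 297 lost the call and 0 reversed. Of the 57, 18 kept the call under all, and 11 lost it under more alternatives than not. Without the variance trend the number of members called, with the reported number in brackets, was 4 (7) for the wild-type response, 0 (4) for ein5, 1 (3) for the ein2 minus wild type response, 0 (4) for ein5 and 0 (1) for ein2 against the wild type in air, and 2 (7) for ein5 against the wild type in ethylene. Fitting only the compared groups, which leaves fewer arrays for the spread, gave 3 (7) for the wild-type response, 1 (0) for ein2, 1 (3) for the ein2 minus wild type response, 0 (4) and 0 (1) in air for ein5 and ein2, and 2 (7) for ein5 in ethylene. Calls for ein2 in ethylene were lost too. Without the variance trend these were AT3G10720, AT4G02330 and AT1G02810 (limma adjusted p = 0.0595, 0.0521 and 0.0571). With only the compared groups they were AT3G10720 and AT4G02330 (limma adjusted p = 0.0603 and 0.0513). On the values as deposited the response differences gave 1 (0) for ein5 and 5 (3) for ein2; quantile normalization gave 1 and 5 for these, and 2 (4) and 2 (1) for ein5 and ein2 in air. Array weights gave 1 (0) for the ein2 response, and leaving out dim probe sets gave 5 (3) for the ein2 minus wild type response. When 1 array was left out the counts ranged from 0 to 5 for the ein5 response, 0 to 0 for ein2 and 4 to 7 for the wild type, from 0 to 1 and 1 to 5 for the ein5 and ein2 response differences, from 0 to 5 and 1 to 2 for ein5 and ein2 in air, and from 2 to 9 and 4 to 8 for them in ethylene. With the replicate number as a block, which does not pair the arrays, the counts were 3 (4) for the ein5 response and 3 (4) for ein5 in air, and as reported for the other comparisons (7 for the wild-type response). Reversals touched only values that were not called. AT4G02330 in the ein5 response was 0.0212 as deposited and 0.00837 after quantile normalization, and -0.0616 to 0.0516 when 1 array was left out. AT3G10720 in the ein2 response was -0.0217 as deposited and -0.0414 after quantile normalization, and -0.0935 to 0.169 when 1 array was left out. AT5G04960 ranged from -0.328 to 0.0436 in the ein5 and from -0.333 to 0.0384 in the ein2 response difference when 1 array was left out. The cause was not tested.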
